A study of Mus musculus with 10 samples.

Results

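Neutrophils in the tumour bed carry ligands that switch T cells on or off, and the therapy given here acts on 2 of the molecules concerned. The 10 genes described are Cd274 (PD-L1) and Cd40, which are the targets of the therapy, and 8 related costimulatory or inhibitory molecules, Pdcd1lg2 (PD-L2), Cd80, Cd86, Icosl, Vsir (VISTA), Lgals9 (galectin-9), Havcr2 (TIM-3) and Sirpa. They were taken by symbol from 55385 mouse genes in the table, with earlier results of these data known. All 10 had a mean level of 5 CPM or more (CPM are counts scaled to a common library total), and all were among the 29648 genes tested. RNA was sequenced in bulk from Tomato+ neutrophils of squamous cell carcinomas (SCC) grafted on CatchupIVM-red mice, a line in which the neutrophil gene Ly6g drives the red reporter. The grafts were parental Sox2low control cells or Sox2Hi cells, Sox2 being a stem cell transcription factor. All library names carry C57, and those of control grafts carry GFP where those of Sox2Hi grafts carry Sox2, which the labels do not explain further. Tumours were either left naive or treated with anti-PDL1 and a CD40 agonist, which gave 4 groups: naive control (n = 3), treated control (n = 2), naive Sox2Hi (n = 3) and treated Sox2Hi (n = 2). The labels give no dose, schedule, age or number of animals per library, and do not say whether libraries came from separate mice. The p-values measure the spread between these libraries, and how far it is technical is not known.

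PD-L1 and PD-L2 are ligands of the inhibitory receptor PD-1 on T cells. CD80 and CD86 are the B7 ligands that costimulate T cells through CD28 and restrain them through CTLA-4, and PD-L1 can also bind CD80 on the same membrane. CD40 is a TNF receptor family member of antigen-presenting cells that signals through TRAF proteins to NF-kappa B, normally on contact with CD40 ligand of T cells. Interferon gamma, acting through JAK kinases and the transcription factor IRF1, is a well known inducer of PD-L1, also in myeloid cells.

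The libraries held 13815734 to 22986193 counts over genes. CPM values below were scaled with TMM factors, which correct for library composition, taken from the 11270 genes that averaged 5 CPM or more. These are called expressed-gene factors. The choice matters because reads over olfactory and vomeronasal receptor genes, which neutrophils should not express, were unevenly spread. Such background was expected to make up 1.25% to 1.47% of the treated control counts, 4.29% to 7.15% of the naive control, 3.16% to 3.18% of the naive Sox2Hi and 3.34% to 4.22% of the treated Sox2Hi counts. Factors taken over all filtered genes (all-gene factors) moved the median log2 change of genes of at least 5 CPM from -0.05 to 0.36 for treatment in control tumours and from -0.17 to -0.79 for the interaction. Where this choice changed a call of the 10 genes, both are given. Summed over 18 neutrophil markers, all with reads in every library, levels were 13444 to 21744 CPM in naive control, 45280 to 48382 in treated control, 12733 to 19081 in naive Sox2Hi and 23534 to 23743 in treated Sox2Hi libraries. Ly6g itself was low, from 1.62 to 18.3 CPM. Of other cell types, 9 fibroblast and endothelial markers summed to 272 to 715 CPM in naive control, 454 to 625 in naive Sox2Hi, and 104 to 315 CPM in treated libraries. Over all libraries, 11 keratinocyte markers summed to 789 to 3068 CPM and 7 B and plasma cell markers to 29.7 to 172 CPM, apart from 721 CPM in naive Sox2Hi replicate 2. Their part in the results was not tested. Each group mixed libraries with at most 8 reads of the Y-linked gene Ddx3y with libraries with 1007 or more. So no group was made only of repeats of a single sample.

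Sequence upstream of the start site was read for the members that had an entry in RefSeq's promoter table (GRCm38.p6), 7 of the 10, in windows from 250 bases before to 50 bases after the start. Those of 3 genes are shown, because the neighbouring PD-1 ligand genes responded to different extents and Lgals9 was the member with interferon-type matches. Only bases upstream of the gene are printed, and capitals mark motif matches. The stretch of Cd274 is chr19:29367188-29367437 (plus strand), that of Pdcd1lg2 chr19:29410669-29410918 (plus strand) and that of Lgals9 chr11:78984947-78985174 (minus strand).
Cd274: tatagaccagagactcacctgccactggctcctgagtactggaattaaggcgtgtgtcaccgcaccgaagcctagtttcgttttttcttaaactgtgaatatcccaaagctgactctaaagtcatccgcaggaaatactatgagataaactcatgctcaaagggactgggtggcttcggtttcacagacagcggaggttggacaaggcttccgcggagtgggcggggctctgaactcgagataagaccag
Pdcd1lg2: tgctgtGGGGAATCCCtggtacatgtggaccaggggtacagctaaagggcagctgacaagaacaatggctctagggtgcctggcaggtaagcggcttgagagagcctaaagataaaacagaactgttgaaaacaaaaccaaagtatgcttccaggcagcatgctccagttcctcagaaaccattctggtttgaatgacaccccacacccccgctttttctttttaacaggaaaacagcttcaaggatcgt
Lgals9: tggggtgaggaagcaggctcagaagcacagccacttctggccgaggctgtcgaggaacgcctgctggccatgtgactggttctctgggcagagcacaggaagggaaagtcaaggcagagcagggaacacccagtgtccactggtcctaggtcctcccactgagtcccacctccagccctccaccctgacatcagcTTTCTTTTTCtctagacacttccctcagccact
The search covered 3 motifs on both strands: the core of the interferon-stimulated response element (ISRE, a pair of GAAA half-sites with any 2 bases between), the gamma-activated GAS element (TTCNNNGAA) and the kappa B consensus. Of all 32851 promoters in the table, 3.44% held the ISRE core, 8.3% the GAS element and 8.46% the kappa B consensus. In Lgals9 the ISRE core matched on the opposite strand at -55 to -46 (TTTCTTTTTC) and again at 15 to 24, downstream of the start. The stretch GGGGAATCCC of Pdcd1lg2, at -244 to -235, matched kappa B, and Icosl had a kappa B match at -111 to -102. None of the 3 motifs was found in the windows of Cd274, Cd80, Vsir or Havcr2, which says only that these letters are not in those windows.

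PD-L1 was the most abundant member. Per kilobase of exon, the mean level in naive control libraries was 63 CPM per kb (SD 10.3, n = 3) for Cd274, 43 for Cd80 (SD 9.32), 34.2 for Cd86 (SD 10.2), 21.2 for Lgals9 (SD 4.04), 18.1 for Havcr2 (SD 3.28) and 6.56 for Pdcd1lg2 (SD 0.748). Below these came Sirpa at 4.57 (SD 0.54), Vsir at 4.29 (SD 1.33), Cd40 at 3.64 (SD 0.627) and Icosl at 1.91 CPM per kb (SD 0.189). Within this order the libraries of Cd80 and Cd86 overlapped, as did those of Cd86 and Lgals9, those of Lgals9 and Havcr2, and those of Sirpa, Vsir and Cd40. Background weighed most on Icosl: the silent-gene rate would give 12.1% of its reads over all libraries, against 4.48% for Cd40, 4.03% for Sirpa, 3.98% for Vsir and 2.31% for Pdcd1lg2. For the other 5 members that share was 1.3% or lower.

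**Figure D1:**
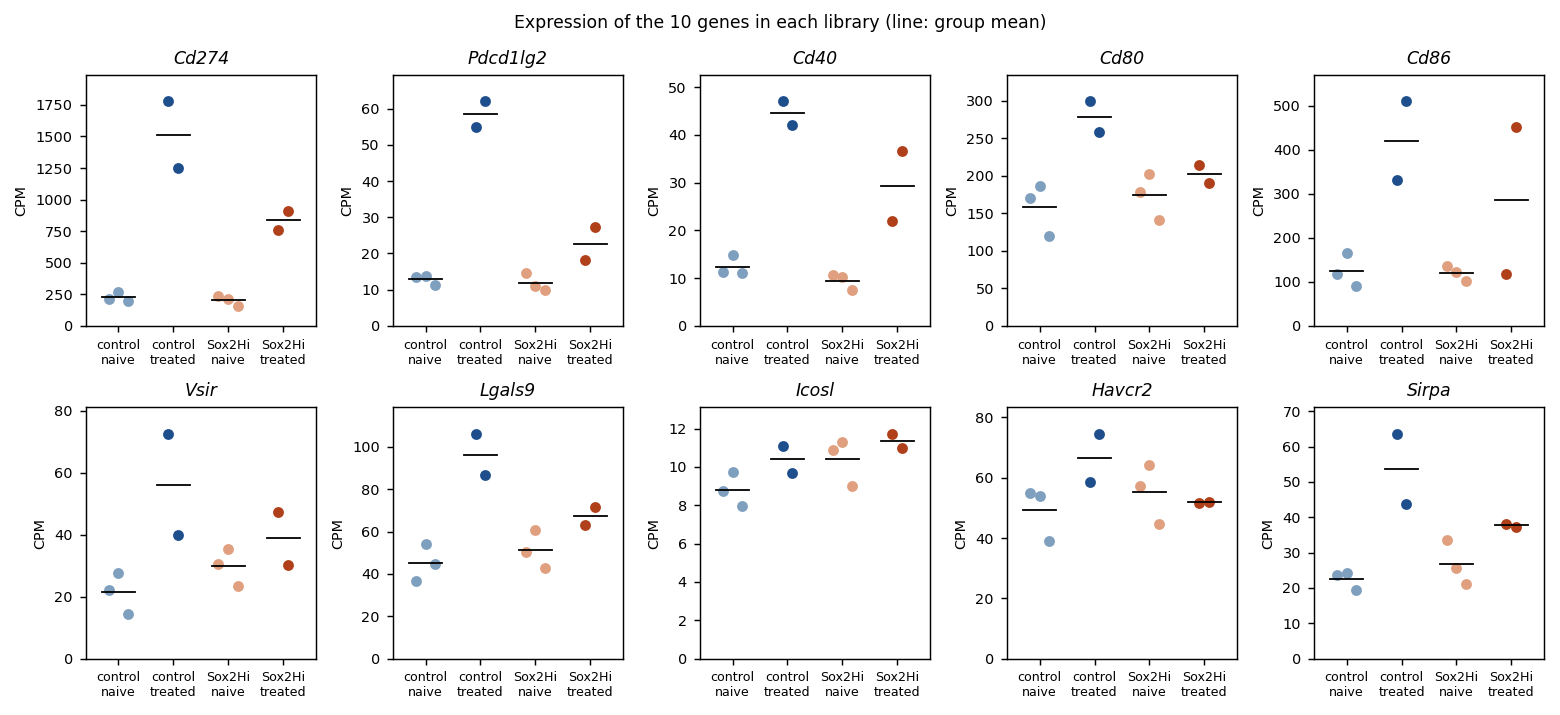
Level of each of the 10 genes in every library, in CPM with expressed-gene factors (y axis, linear, from 0), by group (x axis); points are libraries and lines are group means. Treated control libraries lie highest on average for 9 of the 10 genes, with Cd274 at 1777 and 1251 CPM, and Icosl is nearly level across the groups.

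After treatment of control tumours, 8 of the 10 genes were higher, from 1.75-fold for Cd80 to 6.63-fold for Cd274, and 9 of 10 had treated libraries that lay wholly above the naive ones. Among genes of at least 5 CPM, 28% were called higher and 27.5% lower in this comparison and 34.1% had treated libraries wholly above the naive ones. A gene was called at an adjusted p under 0.05 (edgeR quasi-likelihood test, Benjamini-Hochberg over all genes tested). The median log2 change over the 10 genes was 1.32, against -0.05 over genes of at least 5 CPM. Icosl and Havcr2 did not pass. Under all-gene factors all 10 were called, where 40% of genes of at least 5 CPM were called higher. With expressed-gene factors 3161 of these genes were called higher and 3094 lower, and with all-gene factors 4509 and 1240.

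Treatment of Sox2Hi tumours raised 3 of the 10 genes, Cd274, Cd40 and Pdcd1lg2, where 7.25% of genes of at least 5 CPM were called higher and 4.04% lower. Treated libraries lay wholly above the naive ones for 5 of 10, against 32.6% of such genes. The median log2 change over the 10 was 0.45, against 0.025. Without treated Sox2Hi replicate 2, Cd274 was the 1 gene still called. All-gene factors called 2 genes, Cd274 and Cd40, with 4% of genes of at least 5 CPM called higher.

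**Figure D2:**
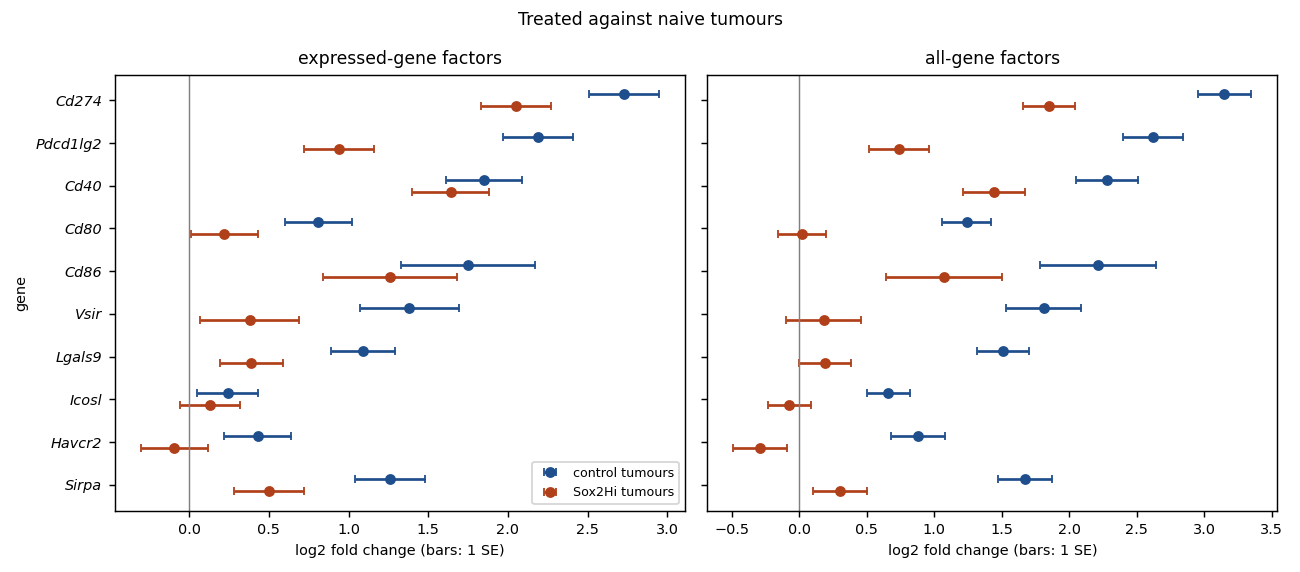
Log2 fold change of treated against naive tumours (x axis) for the 10 genes (y axis), in control and Sox2Hi tumours; points are edgeR estimates and bars are 1 SE, with expressed-gene factors on the left and all-gene factors on the right. In each panel the control estimate lies to the right of the Sox2Hi estimate for every gene, and for Cd40 the estimates are close with expressed-gene factors (1.85 and 1.64).

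The PD-1 ligands rose most in control tumours, and PD-L1 rose under treatment in both grafts. Cd274 stood at 214, 271 and 200 CPM in naive control, 1777 and 1251 in treated control, 239, 212 and 156 in naive Sox2Hi and 763 and 909 in treated Sox2Hi libraries. Every treated library was far above every naive one, the treated control pair was above the treated Sox2Hi pair, and the naive groups overlapped. The log2 change with treatment was 2.73 (SE 0.22, adjusted p = 2.3e-05) in control tumours and 2.05 (SE 0.22, adjusted p = 0.00052) in Sox2Hi tumours. Both calls were kept in all 13 alternatives and with each of the 10 libraries left out.

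Pdcd1lg2 gave 13.6, 13.8 and 11.2 CPM in naive control, 55 and 62 in treated control, 14.5, 11 and 10 in naive Sox2Hi and 18.1 and 27.4 in treated Sox2Hi libraries. Here too the treated libraries were above the naive ones in each graft, but those of Sox2Hi tumours stood far below the treated control ones. The log2 change was 2.19 (SE 0.22, adjusted p = 5.9e-05) in control tumours and 0.94 (SE 0.22, adjusted p = 0.032) in Sox2Hi tumours. The call in Sox2Hi tumours was lost with all-gene factors (log2 change 0.74, adjusted p = 0.08), with library totals alone (adjusted p = 0.081) and with a replicate block by title number (0.062) or description number (0.057). It was also lost without naive control replicate 1 (log2 change 0.93), naive Sox2Hi replicate 2 (0.95) or 3 (0.91), or treated Sox2Hi replicate 2 (0.60, adjusted p = 0.35).

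Between treated tumours, PD-L2 was 2.58-fold lower and PD-L1 1.81-fold lower in Sox2Hi than in control libraries. These were the 2 of 10 genes called lower in that comparison, in which 7.74% of genes of at least 5 CPM were called lower. The log2 difference was -1.37 for Pdcd1lg2 (SE 0.24, adjusted p = 0.015) and -0.86 for Cd274 (SE 0.25, adjusted p = 0.042). The call for Pdcd1lg2 was lost in a fit of the 2 treated groups alone (-1.26, adjusted p = 0.065), without treated control replicate 2 (-1.15, adjusted p = 0.057) and without treated Sox2Hi replicate 1 (-1.10, adjusted p = 0.089). That for Cd274 was weaker: it was lost in 4 of 13 alternatives, with log2 differences as small as -0.45 and adjusted p up to 0.13. Leaving out 1 library also ended the Cd274 call for naive control replicate 1 (-0.77), either treated control library (-0.54 and -0.96), naive Sox2Hi replicate 1 or 2 (-0.74 each) and either treated Sox2Hi library (-0.74 and -0.90). In libraries of the same Ddx3y class, the difference in log2(CPM + 1) between the treated grafts was -0.71 and -0.97 for Cd274 and -1.72 and -0.98 for Pdcd1lg2, from 1 library a side.

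The response to treatment itself was tested between grafts as an interaction, the log2 change in Sox2Hi minus that in control tumours. All 10 estimates were below 0, with a median of -0.64 against -0.17 over genes of at least 5 CPM, and 1 of 10 was called, where 10.8% of such genes were called lower and 15.4% higher. That gene was Pdcd1lg2, at -1.25 (SE 0.31, adjusted p = 0.015). Its call was lost when the silent-gene rate was subtracted (-1.11, adjusted p = 0.073), and without treated control replicate 2 (-1.03), naive Sox2Hi replicate 1 (-0.88) or treated Sox2Hi replicate 1 (-0.98). For Cd274 the interaction was -0.68 (95% interval -1.30 to -0.065, adjusted p = 0.11). The 95% intervals here are normal approximations from the SE, which makes them narrower than the test allows. The unadjusted edgeR p for Cd274 was 0.051, so 0 is not excluded. All-gene factors gave -1.30 for Cd274 (adjusted p = 0.008) and called 8 of the 10 genes, all but Cd40 and Cd86, where 39.2% of genes of at least 5 CPM were called lower. They gave -1.88 for Pdcd1lg2, and also lowered interactions of genes described below, to -1.92 for Lilrb4a, -2.12 for Siglecg, 1.19 for Nectin3, -1.71 for Tnfrsf9, -1.71 for Tnfaip3, -1.61 for Nfkbia, 0.87 for Traf5, -1.49 for Jak2, -1.40 for Ptpn2, -1.31 for Cd47 and -1.39 for Skap2. TMM factors with library sizes of the expressed genes, chosen after seeing the data, left 9 of 10 below 0 with a median of -0.44.

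**Figure D3:**
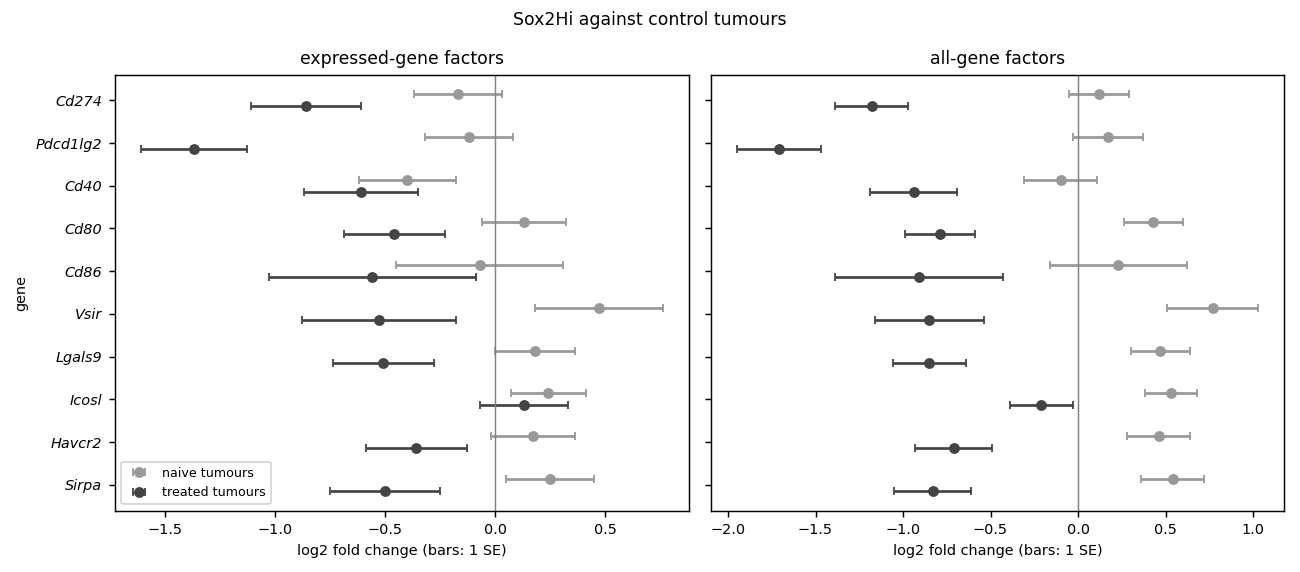
Log2 fold change of Sox2Hi against control tumours (x axis) for the 10 genes (y axis), in naive and treated tumours; points are edgeR estimates and bars are 1 SE, with expressed-gene factors on the left and all-gene factors on the right. With expressed-gene factors Pdcd1lg2 (-1.37) and Cd274 (-0.86) lie farthest to the left in treated tumours, and the naive estimates lie within 0.5 of 0.

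A ratio of 2 genes within a library does not depend on scaling. The log2 ratio of Cd274 to Pdcd1lg2 counts was 3.97, 4.29 and 4.16 in naive control and 4.03, 4.26 and 3.96 in naive Sox2Hi libraries. After treatment it was 5.01 and 4.33 in control and 5.40 and 5.05 in Sox2Hi libraries, so the control groups nearly met (4.29 and 4.33), and the treated Sox2Hi libraries were highest, above all naive ones. The log2 ratio of Cd274 to the summed neutrophil markers was -6.41 to -6.07 in naive control and -6.35 to -6.30 in naive Sox2Hi libraries. It was -4.77 and -5.18 in treated control and -4.95 and -4.71 in treated Sox2Hi libraries. Relative to this sum PD-L1 was higher in all 4 treated libraries, and here the treated grafts overlapped. The largest part of the sum was Il1r2, which went from a mean of 11192 to 17773 CPM in control tumours. Retnlg, another of the markers, went from 162 to 1709 CPM there, more steeply than Cd274. The result thus depends on which markers are taken. The part of the neutrophil marker levels in the changes of the other 9 genes was not tested. In bulk RNA a larger share of a cell type and more RNA per cell cannot be told apart.

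**Figure D4:**
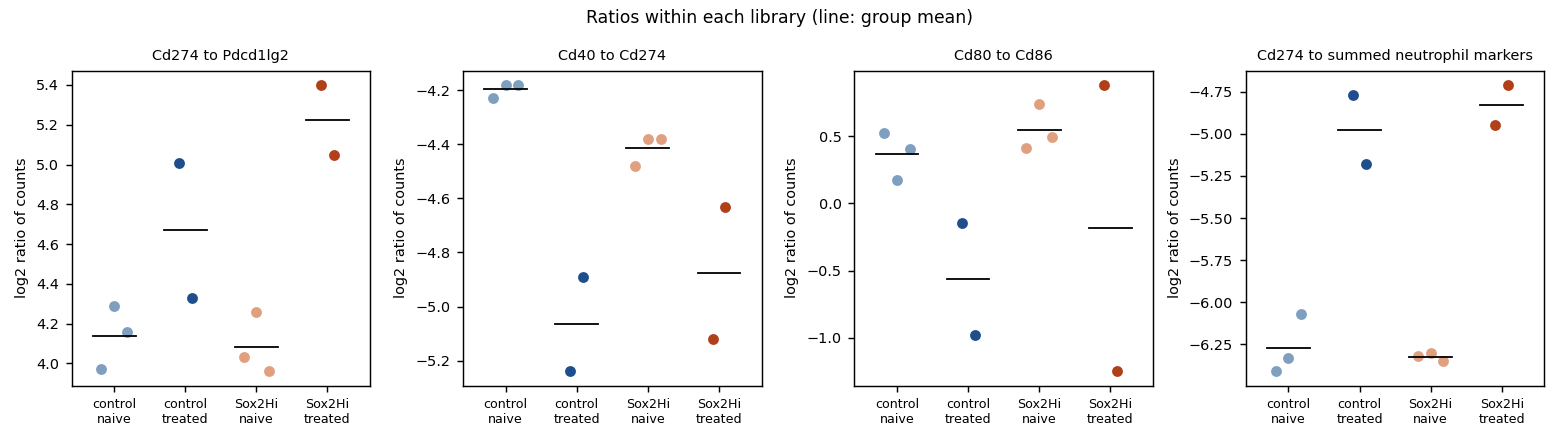
Log2 ratios of counts within each library (y axis, not from 0) by group (x axis) for 4 pairs; points are libraries and lines are group means. Cd274 to Pdcd1lg2 is highest in the treated Sox2Hi libraries (5.40 and 5.05). Cd40 to Cd274 is lower in treated than in naive libraries. Cd80 to Cd86 splits the treated Sox2Hi pair (0.88 and -1.25). Cd274 to summed neutrophil markers separates treated from naive libraries.

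The 2 ligand genes are neighbours on chromosome 19 in GRCm38. Cd274 spans 29367455 to 29388095 and Pdcd1lg2 29410919 to 29471161, both on the plus strand and 22.8 kb apart. Each overlaps an annotated antisense gene. AC119228.1 shares 511 exon bases with Cd274 and had 120 to 373 counts, against 3182 to 23871 for Cd274. A930007I19Rik shares no exon base with Pdcd1lg2 and had 153 to 627 counts, with a mean of 10.6 CPM in naive control, 37 in treated control, 9.82 in naive Sox2Hi and 19 in treated Sox2Hi libraries. On chromosome 2 lie Cd40 (165055627 to 165072948, plus strand) and Sirpa (129592835 to 129632228, plus), and on chromosome 16 Cd80 (38455561 to 38496335, plus) and Cd86 (36603869 to 36666081, minus). Vsir (60346851 to 60372684) and Icosl (78069302 to 78083913) are on the plus strand of chromosome 10, and chromosome 11 holds Lgals9 (78962974 to 78984946, minus) and Havcr2 (46454935 to 46481255, plus). Whether counting used strand is not given in the sources used here, so reads of overlapping genes cannot be told apart where they share exons.

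CD40 rose with treatment in both grafts. Cd40 stood at 11.3, 14.9 and 11 CPM in naive control, 47 and 42.1 in treated control, 10.6, 10.2 and 7.48 in naive Sox2Hi and 21.9 and 36.7 in treated Sox2Hi libraries. Treated libraries were above naive ones without overlap, and every naive Sox2Hi library was below every naive control library. The log2 change with treatment was 1.85 (SE 0.24, adjusted p = 0.00028) in control and 1.64 (SE 0.24, adjusted p = 0.0034) in Sox2Hi tumours. Without treated Sox2Hi replicate 2, the call in Sox2Hi tumours was lost (1.21, adjusted p = 0.065). The responses differed by -0.21 (95% interval -0.88 to 0.46, adjusted p = 0.65), which leaves differences in either direction possible. That difference was 0.13 with library totals alone, and above 0 without naive control replicate 3 (0.069), naive Sox2Hi replicate 1 (0.079) or 2 (0.041), or treated Sox2Hi replicate 1 (0.12). The log2 ratio of Cd40 to Cd274 was -4.23, -4.18 and -4.18 in naive control, -5.24 and -4.89 in treated control, -4.48, -4.38 and -4.38 in naive Sox2Hi, and -5.12 and -4.63 in treated Sox2Hi libraries. It was lower in every treated library than in any naive one, and lower in the naive Sox2Hi than in the naive control libraries.

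Most genes listed for CD40 signalling rose in control tumours. Of 21 listed TRAF and NF-kappa B genes, 17 rose and 1 fell (median log2 change 0.84), where 28% of genes of at least 5 CPM rose and 27.5% fell, with 10 to 18 rising when 1 library was left out (10 without treated control replicate 1) and 8 with library totals alone. Traf1, an adaptor induced by NF-kappa B, went from 47.3 CPM (SD 6.73, n = 3) to 180 (SD 35, n = 2). Tnfaip3, which encodes the NF-kappa B inhibitor A20, went from 142 (SD 19) to 464 CPM (SD 0.562), and Tank, a TRAF-binding scaffold, from 60.4 (SD 10.6) to 225 CPM (SD 23.9). Their log2 changes were 1.93, 1.70 and 1.90, each called with any 1 library left out. Traf5, another TRAF adaptor, fell from 42.2 (SD 10.1) to 22 CPM (SD 4.22), a log2 change of -0.94 (adjusted p = 0.005). Its naive and treated levels in Sox2Hi tumours were 26.3 (SD 1.51) and 39.1 CPM (SD 0.66). The naive difference of Traf5 between grafts was -0.68 (adjusted p = 0.051). In Sox2Hi tumours 4 of the 21 rose, Traf1, Tank, Birc3 and Traf3, where 7.25% of genes of at least 5 CPM did. That count was 7 without naive control replicate 2, 2 without naive Sox2Hi replicate 3 and 0 without treated Sox2Hi replicate 2. The median there was 0.43, against 0.84 in control tumours, and 0.025 and -0.05 over genes of at least 5 CPM. The interaction was called for 5 of 21 genes, 4 lower and 1 higher, where 10.8% of genes of at least 5 CPM were called lower and 15.4% higher. With all-gene factors 16 were called lower. With a library left out it was 6 without naive control replicate 2, 2 without naive Sox2Hi replicate 3, and 1 without naive control replicate 1 or 3, naive Sox2Hi replicate 1 or 2 or treated Sox2Hi replicate 1. Among the 5 were Tnfaip3 at -1.08 (adjusted p = 0.012), Traf5 at 1.51 (adjusted p = 0.006) and Nfkbia, another NF-kappa B inhibitor, at -0.98 (adjusted p = 0.03). With 1 library left out, Tnfaip3 and Traf5 stayed called in 10 of 10 fits and Nfkbia in 4. Subtracting the silent-gene rate ended the call for Tnfaip3 (adjusted p = 0.078) and Nfkbia (adjusted p = 0.17), and Nfkbia lost it also with library totals (adjusted p = 0.056) and the added TMM variant (adjusted p = 0.057).

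Most genes listed for the path from interferon gamma to PD-L1 rose in control tumours. There 13 of 15 genes rose and 1 fell, where 28% of genes of at least 5 CPM rose and 27.5% fell. The median log2 change was 1.08, against -0.05 over such genes. Fewer of the 15 rose in some fits with 1 library left out. Ptpn2, a damper of JAK signalling, was among the 13 (1.17, adjusted p = 0.00075), so the count gives no direction for the path. The log2 change of Irf1, a transcription factor that acts on the PD-L1 gene, was 1.69 (adjusted p = 0.00065) in control and 1.43 (adjusted p = 0.01) in Sox2Hi tumours. Irf2, a related factor, changed by 2.18 (adjusted p = 0.00025) and 1.39 (adjusted p = 0.017). In Sox2Hi tumours 3 of the 15 genes were called, Irf1 and Irf2 among them, against 7.25% of genes of at least 5 CPM, and the median was 0.47 against 0.025. Leaving out treated Sox2Hi replicate 2 gave 0 genes, and leaving out treated Sox2Hi replicate 1 or naive Sox2Hi replicate 3 gave 1. Cmtm4, which protects PD-L1 protein from degradation, fell in control tumours from 5.44 (SD 0.704) to 1.26 CPM (SD 0.426), by 2.12 on the log2 scale (adjusted p = 0.00069). The interaction was called for 4 of the 15 genes, 3 lower and 1 higher. Of genes of at least 5 CPM, 10.8% were called lower and 15.4% higher. With all-gene factors 9 of the 15 were called lower and 0 higher, where 39.2% of genes of at least 5 CPM were called lower. Among the 4 were Cmtm4 at 1.54 (adjusted p = 0.02) and the kinase Jak2 at -0.84 (adjusted p = 0.039). The others were Jak1 and, at -0.76 (adjusted p = 0.044), the phosphatase Ptpn2, which dampens JAK signalling. Jak2 and Ptpn2 kept that call in 1 of 10 fits with a library left out. Both also lost it with library totals (-0.50 and -0.41), the added TMM variant (-0.65 and -0.56), the description-number block (-0.80 and -0.68) and the silent-gene rate subtracted (-0.66 and -0.58), and Ptpn2 with either other filter or with Ddx3y as a covariate. Cmtm4 lost it without treated control replicate 2 (1.34) or treated Sox2Hi replicate 1 (1.10), with all-gene factors (0.92, adjusted p = 0.13), with the silent-gene rate subtracted (2.74, adjusted p = 0.19) and with the description-number block (1.43, adjusted p = 0.051).

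The costimulatory B7 ligands rose in control tumours. Cd80 was at 171, 186 and 120 CPM in naive control, 299 and 258 in treated control, 179, 203 and 141 in naive Sox2Hi and 215 and 191 in treated Sox2Hi libraries. Treated control libraries lay above all others, and the treated Sox2Hi libraries reached into the naive range. The log2 change with treatment was 0.81 (SE 0.21, adjusted p = 0.0093) in control and 0.22 (95% interval -0.19 to 0.63, adjusted p = 0.54) in Sox2Hi tumours. The interaction was -0.59 (adjusted p = 0.14), and was called with a replicate block by title number (-0.60, adjusted p = 0.045). Without treated control replicate 1 the control call was lost (0.64, adjusted p = 0.068), as it was with library totals alone (0.17, adjusted p = 0.46).

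Cd86 gave 119, 165 and 90.9 CPM in naive control, 332 and 510 in treated control, 135, 122 and 101 in naive Sox2Hi, and 117 and 453 in treated Sox2Hi libraries. The treated Sox2Hi pair differed 3.88-fold, 1 library at the naive level and the other at that of treated control libraries. In control tumours the log2 change was 1.75 (SE 0.42, adjusted p = 0.0069), and 1.27 (adjusted p = 0.072) without treated control replicate 2. In Sox2Hi tumours it was 1.26 (SE 0.42, adjusted p = 0.1), -0.036 without treated Sox2Hi replicate 2 and 1.93 (adjusted p = 0.0064) without replicate 1. Likewise, Cd86 was -0.56 on the log2 scale in Sox2Hi against treated control tumours, with -1.78 (adjusted p = 0.04) and 0.11 when those libraries were left out in the same order, and the interaction was -0.49, -1.70 (adjusted p = 0.023) and 0.18. No direction can be given for Cd86 in treated Sox2Hi tumours.

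Markers of antigen-presenting cells moved with that split. The class II gene H2-Ab1 was at 1732 CPM in the treated Sox2Hi library with low Cd86 and at 4490 CPM in the other. The 12 macrophage markers summed to 947 and 1798 CPM in the same order, and Apoe, 1 of them, was at 379 and 923 CPM. Across the other groups the macrophage sum ran from 805 to 1216 in naive control, 1199 to 1828 in treated control and 1213 to 1729 CPM in naive Sox2Hi libraries, with reads for all 12 markers in each. Without H2-Ab1 the other 10 dendritic cell markers summed to 50.2 and 49.7 CPM in the treated Sox2Hi pair and to at most 110 CPM in any library. In the treated control pair the library with the lower Cd86 had the higher macrophage sum. The neutrophil sum was level in the treated Sox2Hi pair, but Il1r2 (10806 and 10752 CPM) made up much of it. Of its markers Camp (10.6 and 49.4 CPM) and Ngp (80.6 and 318) split like Cd86, and Ly6g the other way (9.79 and 5.45). The part of any of these cell types in the Cd86 values was not tested.

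**Figure D5:**
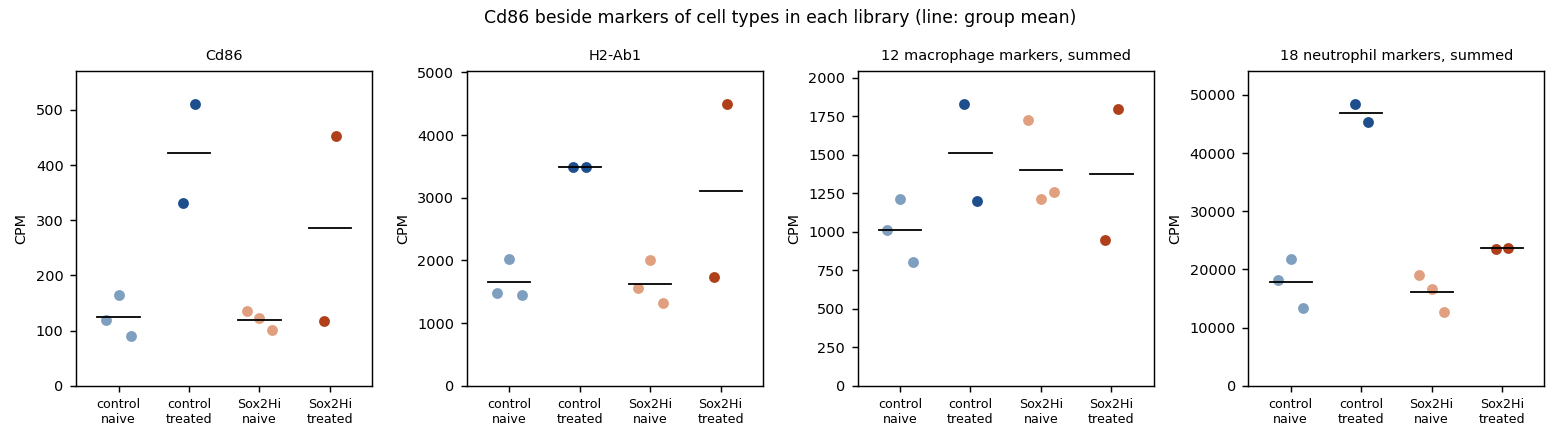
Cd86, H2-Ab1 and the summed macrophage and neutrophil markers in each library, in CPM (y axes, linear, from 0), by group (x axis); points are libraries and lines are group means. The treated Sox2Hi pair splits for Cd86 (117 and 453), H2-Ab1 (1732 and 4490) and summed macrophage markers (947 and 1798). The summed neutrophil markers do not split (23534 and 23743).

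Icosl, the ligand of the T cell costimulator ICOS, was close to level. It read 8.74, 9.71 and 7.97 CPM in naive control, 11.1 and 9.67 in treated control, 10.9, 11.3 and 9 in naive Sox2Hi, and 11.7 and 11 in treated Sox2Hi libraries, and the compared groups overlapped. The log2 change was 0.24 (95% interval -0.13 to 0.60) in control and 0.13 (-0.24 to 0.49) in Sox2Hi tumours, with adjusted p = 0.29 and 0.69. In control tumours the sign depended on scaling, with 0.66 (adjusted p = 0.01) under all-gene factors and -0.40 with library totals alone.

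Vsir, which encodes the inhibitory ligand and receptor VISTA of myeloid cells, was at 22.3, 27.8 and 14.5 CPM in naive control, 72.4 and 39.8 in treated control, 30.4, 35.5 and 23.4 in naive Sox2Hi, and 47.4 and 30.3 in treated Sox2Hi libraries. The control groups were separate and the Sox2Hi groups overlapped. In control tumours the log2 change was 1.38 (SE 0.31, adjusted p = 0.0051), and it was lost without treated control replicate 1 (0.84, adjusted p = 0.071) or with library totals alone (0.74, adjusted p = 0.051). In Sox2Hi tumours it was 0.38 (95% interval -0.23 to 1.00, adjusted p = 0.47). The interaction had a 95% interval from -1.88 to -0.12 (adjusted p = 0.1). It was called with a replicate block by description number (-0.87, adjusted p = 0.027) and with all-gene factors (-1.63, adjusted p = 0.015). Within Ddx3y classes the treated grafts differed in opposite directions, by 0.25 and -1.23 in log2(CPM + 1). Vsir lies within the opposite-strand gene Cdh23, with no shared exon base.

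Galectin-9 rose in control tumours, whereas its receptor TIM-3 did not pass. Lgals9 was at 36.9, 54.2 and 44.9 CPM in naive control, 106 and 86.6 in treated control, 50.2, 61 and 42.6 in naive Sox2Hi, and 63 and 71.7 in treated Sox2Hi libraries. Treated libraries were above naive ones in both grafts, narrowly so in Sox2Hi tumours. The log2 change with treatment was 1.09 (SE 0.20, adjusted p = 0.002) in control tumours, lost with library totals alone (0.44, adjusted p = 0.063). In Sox2Hi tumours it was 0.39 (95% interval -0.007 to 0.79, adjusted p = 0.26). The interaction for Lgals9 was -0.69 (adjusted p = 0.084). It was called with limma-voom (-0.93, adjusted p = 0.024), all-gene factors (-1.32, adjusted p = 0.0079) and without naive control replicate 2 (-0.84, adjusted p = 0.046). For Havcr2 the values were 54.9, 53.9 and 39 CPM in naive control, 58.7 and 74.4 in treated control, 57.4, 64.2 and 44.6 in naive Sox2Hi, and 51.7 and 52 in treated Sox2Hi libraries. The treated control libraries lay just above the naive ones, and the Sox2Hi groups overlapped. The log2 change was 0.43 (SE 0.21, adjusted p = 0.093) in control and -0.093 (95% interval -0.50 to 0.31, adjusted p = 0.8) in Sox2Hi tumours. The control value became 0.88 (adjusted p = 0.0065) under all-gene factors and -0.20 with library totals alone. The log2 ratio of Havcr2 to Lgals9 averaged 0.12 (SD 0.40, n = 3) in naive control, -0.53 (SD 0.45, n = 2) in treated control, 0.11 (SD 0.072, n = 3) in naive Sox2Hi and -0.37 (SD 0.13, n = 2) in treated Sox2Hi libraries.

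Sirpa encodes the myeloid receptor that restrains phagocytosis on binding CD47. It was at 23.7, 24.2 and 19.4 CPM in naive control, 63.5 and 43.7 in treated control, 33.6, 25.6 and 21 in naive Sox2Hi, and 38.2 and 37.4 in treated Sox2Hi libraries. Treated libraries were above naive ones in both grafts. The log2 change with treatment was 1.26 (SE 0.22, adjusted p = 0.0015) in control and 0.50 (95% interval 0.064 to 0.93, adjusted p = 0.2) in Sox2Hi tumours. The interaction was -0.76 (adjusted p = 0.083), and was called with a replicate block by title number (-0.72, adjusted p = 0.044). Close paralogs (Sirpb1a, Sirpb1b and Sirpb1c) can share reads with Sirpa, so its level is uncertain to that extent. Cd47 was at 427, 470 and 406 CPM in naive control, 776 and 778 in treated control, 498, 505 and 431 in naive Sox2Hi, and 510 and 559 in treated Sox2Hi libraries. The log2 change was 0.84 (SE 0.15, adjusted p = 0.0016) in control tumours, lost with library totals alone (0.20, adjusted p = 0.21), and 0.16 (SE 0.15, adjusted p = 0.53) in Sox2Hi tumours. The interaction for Cd47 was called at -0.68 (SE 0.21, adjusted p = 0.033), but in 1 of 10 fits with a library left out (-0.74 to -0.44). It was also lost with library totals (-0.32), no filter (adjusted p = 0.061), the added TMM variant (-0.48), the description-number block (-0.64) and the silent-gene rate subtracted (-0.48). Of 9 listed genes of SIRP and CD47 signalling, 8 rose in control tumours (median 1.15, against -0.05 over genes of at least 5 CPM) and 2, Sirpb1a and Fyb, in Sox2Hi tumours (median 0.66, against 0.025). Of genes of at least 5 CPM, 28% and 7.25% rose in these comparisons. In Sox2Hi tumours that count was 5 without naive control replicate 3, 4 without naive control replicate 2, 1 without naive control replicate 1, naive Sox2Hi replicate 2 or 3 or treated Sox2Hi replicate 1, and 0 without treated Sox2Hi replicate 2. The adaptors Fyb, Skap2 and Tyrobp changed by 2.21, 1.42 and 1.48 in control tumours, and Fyb by 1.58 (adjusted p = 0.0087) in Sox2Hi tumours. Skap2 had an interaction of -0.76 (adjusted p = 0.045), called in 1 of 10 fits with a library left out. That call was lost too under the settings named for Cd47, with -0.40 under library totals, and among genes of at least 5 CPM only (adjusted p = 0.056).

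Further checkpoint molecules also moved in control tumours. Of 26 further B7, TNF superfamily and inhibitory ligands or myeloid checkpoint receptors tested, 15 rose and 4 fell in control tumours (median 0.90), where 28% of genes of at least 5 CPM rose and 27.5% fell. In Sox2Hi tumours 3 rose and 1 fell (median 0.37), shares near the 7.25% and 4.04% of such genes. The count that rose there was 6 without naive control replicate 3, and 0 without naive Sox2Hi replicate 3 or treated Sox2Hi replicate 2. Lilrb4a, an inhibitory receptor of myeloid cells, went from 1383 (SD 252) to 4377 CPM (SD 412) in control tumours, and from 1618 (SD 253) to 2101 CPM (SD 380) in Sox2Hi tumours. Its log2 change was 1.66 (adjusted p = 0.00021) in the first and 0.38 (adjusted p = 0.28) in the second, with an interaction of -1.29 (adjusted p = 0.011). Siglecg, an inhibitory sialic acid receptor, changed by 1.52 (adjusted p = 0.00035) and 0.042 (adjusted p = 0.92), with an interaction of -1.48 (adjusted p = 0.0069). Nectin3, an adhesion molecule, had the opposite sign: -1.22 (adjusted p = 0.0037) and 0.62 (adjusted p = 0.15), with an interaction of 1.84 (adjusted p = 0.0059). It went from 7.31 (SD 2) to 3.11 CPM (SD 0.187) in control and from 3.82 (SD 0.198) to 5.86 CPM (SD 0.944) in Sox2Hi tumours. The naive grafts thus differed already (-0.93, adjusted p = 0.04), a call lost with all-gene factors (-0.63, adjusted p = 0.081). The interactions of Lilrb4a, Siglecg and Nectin3 were called in all 10 fits that left out 1 library. With the silent-gene rate subtracted, the interaction call was lost for Lilrb4a (adjusted p = 0.065) and Nectin3 (adjusted p = 0.082) and kept for Siglecg (adjusted p = 0.018), and the fall of Nectin3 in control tumours was no longer called (-1.18, adjusted p = 0.083). Pilra, another inhibitory receptor, rose by 1.75 in control and 1.02 in Sox2Hi tumours (adjusted p = 0.00024 and 0.023), and the second call was lost without naive Sox2Hi replicate 3 (0.94) or either treated Sox2Hi library (1.00 and 1.03).

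Among the T cell partners of the ligands, PD-1 itself was low. Pdcd1, which encodes it, had 2 to 92 counts, and the silent-gene rate would give 31.9% of them. Its levels were 0.149 and 5.52 CPM in the treated control pair and 3.69 and 1.28 CPM in the treated Sox2Hi pair. Of 13 T cell partner genes, 4 rose in control tumours, a share near the 28% of genes of at least 5 CPM called higher, and 0 were called in Sox2Hi tumours by edgeR (0 or 1 with a library left out). In control tumours the count was 8 without treated control replicate 1 and 1 without replicate 2, and 2 without naive control replicate 1 or 3, naive Sox2Hi replicate 3 or either treated Sox2Hi library. Tnfrsf9 (4-1BB), a costimulatory receptor, went from 10.9 (SD 0.708) to 24.2 CPM (SD 0.664) in control tumours and was at 17.4 (SD 1.5) and 18.1 CPM (SD 1.22) in naive and treated Sox2Hi tumours. Its log2 change was 1.15 (adjusted p = 0.00048) in control tumours, with an interaction of -1.09 (adjusted p = 0.0087) that was called in all 10 fits with a library left out. Cd28 and Cd27, T cell costimulatory receptors, rose by 1.87 (adjusted p = 0.014) and 1.34 (adjusted p = 0.046). Without treated control replicate 2 these were 0.65 (adjusted p = 0.36) and 0.50 (adjusted p = 0.53), and Cd27 stayed called in 4 of 10 fits with a library left out. Cd27 also lost its call with RLE factors (adjusted p = 0.05), library totals (0.70), the added TMM variant (1.21), the description-number block (1.24) and the silent-gene rate subtracted (1.75). Beside them, the 9 markers of T and NK cells summed to 49.9 to 81.7 CPM in naive control, 122 to 447 in treated control, 36.1 to 134 in naive Sox2Hi and 149 to 255 CPM in treated Sox2Hi libraries, with reads for all 9 in every library. Their part in the levels of Cd28 and Cd27 was not tested.

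Between naive tumours none of the 10 genes was called, where 8.89% of genes of at least 5 CPM were called in either direction (4.24% with all-gene factors). At an unadjusted p under 0.05 there was also none of the 10, and the lowest was 0.098 for Cd40, where 3127 of 11270 genes of at least 5 CPM were under 0.05. All-gene factors, DESeq2 and replicate blocks by title or description number gave 0 as well. Only limma-voom with quality weights called a member, Lgals9 (0.42, adjusted p = 0.044), in a fit that called 3466 of the 11270 genes. The log2 differences ran from -0.40 for Cd40 (95% interval -0.83 to 0.038) to 0.47 for Vsir (-0.091 to 1.03). Cd40 was the 1 gene whose naive Sox2Hi libraries lay wholly below the control ones, as 17.6% of genes of at least 5 CPM did. In treated tumours 9 of the 10 differences were below 0 (median -0.52, against -0.07 over genes of at least 5 CPM), and for 7 genes the Sox2Hi libraries lay wholly below the control ones, as for 34.1% of such genes. Besides Cd274 and Pdcd1lg2, all-gene factors called Cd40, Cd80, Lgals9 and Sirpa lower there, where 22.3% of genes of at least 5 CPM were called lower. The comparisons share groups, so their values are not independent of each other.

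The genes most like PD-L1 over the 10 libraries included known interferon-induced ones. By Pearson correlation of log2(CPM + 1) among 9919 genes of at least 5 CPM with a regular symbol, Cd274 was closest to Oas1a (0.998), Fbxl5 (0.997), Gvin1 (0.996), Ly6c2 (0.996) and Gbp10 (0.995). Cd40 was closest to Chil3 and Rnf213 (0.997 each), Nampt (0.993), Gbp2 (0.992) and Irgm1 (0.991). Oas1a, Gvin1, Gbp10, Gbp2 and Irgm1 are known interferon-induced genes. Among the members, Cd274 correlated at 0.982 with Cd40, 0.936 with Pdcd1lg2, 0.927 with Sirpa and 0.910 with Lgals9, but at 0.510 with Icosl and 0.475 with Havcr2. These values describe 10 libraries that share 4 groups, so a common difference between treated and naive libraries alone gives a high value.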

How the data were processed

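Bulk RNA was sequenced from 10 libraries of Tomato+ neutrophils. Per the submitters' processing notes kallisto 0.44.0 and the mm10 build were used. The values of the deposited table are whole-number estimated counts (expected counts) per Ensembl gene. The annotation and strand setting are not given in the sources used here. Symbols, positions and exon lengths come from GENCODE M21 (55144 of 55385 mouse genes named). The other 96 entries, at most 0.00277% of a library, were left out.

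Genes passing edgeR's filterByExpr (29648) were fitted over all 4 groups with edgeR 4.0.16 (R 4.3.3) by the quasi-likelihood test, with Benjamini-Hochberg adjustment. CPM used the same factors. DESeq2 1.42.0, limma 3.58.1, other scalings and filters, replicate blocks and left-out libraries were alternatives. All-gene factors, a common default, were made an alternative because of the uneven silent-gene reads, measured on 1972 receptor genes. Subtracting that rate per base was another. On simulated counts the test was checked to recover known changes. There, unlike here, few genes changed and background did not differ between libraries, so that check does not bear on the scaling.

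The members, lists and this scaling were chosen with earlier results of these data known. Named list genes are the 3 of lowest unadjusted p per list for treatment in control tumours and up to 3 called in the interaction. The values of 1 of them are not reported here. Libraries with the same title number deviated together among naive tumours (correlations 0.275, 0.334 and 0.478) and between treated control and naive libraries (0.154 to 0.259). In pairs with treated Sox2Hi libraries correlations ran from -0.282 to 0.0873. What the number marks is not given. Replicates differed by more than counting noise (chi-square per degree of freedom at least 12.5).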

Additional observations from a re-analysis of the deposited data

Results flagged for a closer look

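The change of Pdcd1lg2 with treatment differed between grafts, with an interaction of -1.25 on the log2 scale (SE 0.31, adjusted p = 0.015, edgeR). That call was lost with background subtracted (-1.11, adjusted p = 0.073) and without treated control replicate 2 (-1.03), naive Sox2Hi replicate 1 (-0.88) or treated Sox2Hi replicate 1 (-0.98). The 2 control treated libraries (55 and 62 CPM) lay above the 2 Sox2Hi treated ones (18.1 and 27.4 CPM).

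Reads of the tdTomato reporter, which the comparisons did not use, were present in every library. The lowest library had 135 counts, and levels ran from 9.77 to 27.7 CPM of the library totals, without TMM factors. A count of 0 would allow 0.131 to 0.217 CPM, which covers counting error only. Single outlying libraries in these groups of 2 or 3 were not tested.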

How the results depend on the processing

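Treatment raised Cd274 in both grafts and Cd40, Pdcd1lg2 and Sirpa in control tumours under every alternative run and with each library left out, and limits of other calls stand with each gene. The number of the 10 genes called in control tumours was 5 with library totals alone. Between naive tumours limma-voom called 1, and 3466 of 11270 genes of at least 5 CPM. Between treated tumours the count was 6 with all-gene factors, 1 with library totals, 1 with background subtracted (2508, 242 and 157 of those genes lower) and 0 with the 2 groups alone, and it ran from 0 to 2 with a library left out. For the interaction it was 8 with all-gene factors, 2 with limma-voom and 0 with background subtracted, where 4418, 1697 and 144 of those 11270 genes were called lower (1214 as reported), and 0 to 2 with a library left out. In Sox2Hi tumours it was 1 to 4 with a library left out. Where 1 of 2 treated libraries is left out, the other is assumed to vary like the other groups.

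Counts over all genes moved widely, and the cause was not tested. In control tumours 14407 genes were called, against 21614 with library totals, 6374 among genes of at least 5 CPM only, 6525 with background subtracted and 9987 to 15722 with a library left out. In Sox2Hi tumours 1489 became 2263 at 5 CPM, 2866 with DESeq2, 3526 with limma-voom, 2599 with the 2 groups alone and 180 to 2540 with a library left out. Between naive tumours 1723 became 558 with all-gene factors, 13 with RLE factors, 23 with library totals, 3923 with the TMM variant chosen after seeing the data, 9390 with limma-voom, 57 with the 2 groups alone, 768 with Ddx3y as a covariate, 505 with background subtracted and 3 to 6189 with a library left out. Between treated tumours 3850 became 2422 with RLE factors, 10938 with library totals, 2471 at 5 CPM, 2213 with limma-voom, 2 with the 2 groups alone, 639 with background subtracted and 81 to 6021 with a library left out. The interaction count of 9265 became 2677 at 5 CPM, 5972 with DESeq2, 1642 with background subtracted and 4002 to 11435 with a library left out.

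With a replicate block by title number, the interaction was called for 3 members, Pdcd1lg2, Cd80 (-0.60, adjusted p = 0.045) and Sirpa (-0.72, adjusted p = 0.044), where 1700 of the 11270 genes were called lower. With a replicate block by description number it was called for 2, Pdcd1lg2 and Vsir (-0.87, adjusted p = 0.027), where 928 of the 11270 genes were called lower, and 1 member was called between treated tumours, where 2506 genes were called. The description block gave 808 genes between naive tumours, and the title block 2492. The blocks also ended the call of Pdcd1lg2 in Sox2Hi tumours (0.82 and 0.93).

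Signs turned for some values that were not called. With library totals they became -0.40 (Icosl) and -0.20 (Havcr2) in control tumours, -0.045 (Cd80) and -0.14 (Icosl) in Sox2Hi tumours, 0.049 (Havcr2) between treated tumours, and 0.13 (Cd40) and 0.26 (Icosl) for the interaction, where the added TMM variant gave 0.087 for Icosl. All-gene factors gave 0.12 (Cd274), 0.17 (Pdcd1lg2) and 0.23 (Cd86) between naive tumours, and for Icosl -0.074 in Sox2Hi tumours and -0.21 between treated tumours. limma-voom gave 0.0071 for Cd86 between naive tumours. With a library left out, naive differences ran from -0.12 to 0.26 for Cd80, -0.34 to 0.18 for Cd86, -0.044 to 0.33 for Lgals9, -0.062 to 0.24 for Havcr2 and -0.026 to 0.31 for Sirpa. In Sox2Hi tumours Cd86 ran from -0.036 to 1.93 and Havcr2 from -0.15 to 0.087, between treated tumours Cd86 from -1.78 to 0.11, and the interaction from -0.54 to 0.12 for Cd40, -1.70 to 0.18 for Cd86 and -0.18 to 0.16 for Icosl. A pseudocount of 0.5 in the ratios moved none by more than its SD.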
